A study of Homo sapiens with 6 samples.

Results

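The expression of 10 enzymes reported to add or remove acetyl and lactyl groups on histone lysines was examined in cells labelled Huh7, a line derived from a human hepatocellular carcinoma. They were chosen by name, as the rows whose gene symbol was EP300, CREBBP, KAT5, KAT8, HDAC1, HDAC2, HDAC3, SIRT1, SIRT3 or AARS1. All 10 symbols were found, each once, among 60623 genes. The rule that picks the rows uses no measured value. The libraries were 3 from cells with the genotype label SRSF10 knockdown, made with a short hairpin RNA going by the series title, and 3 from controls, whose genotype label is WT. No other treatment is recorded for either group, and both carry the same cell line label. Nothing in the labels states that a control hairpin was used in the controls, how many hairpins or clones there were, or that the libraries of a group came from separate cultures. The p-values therefore measure the spread between these libraries, which may be technical.

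Histone lysines carry acetyl groups and also longer or differently charged acyl groups, among them lactyl. Writers transfer the group from its CoA ester to the lysine, erasers take it off, and reader proteins bind the modified lysine. EP300 (p300) and CREBBP (CBP) are a pair of closely related transcriptional coactivators with broad substrate range, and both are reported to use lactyl-CoA as well as acetyl-CoA. KAT5 (TIP60) is the catalytic subunit of the NuA4/TIP60 complex, and KAT8 (MOF) is the catalytic subunit of the MSL and NSL complexes, with lysine 16 of histone H4 as its best known substrate. AARS1 charges tRNA with alanine in the cytosol and has been reported to act as a lactyltransferase that uses lactate itself. HDAC1, HDAC2 and HDAC3 are zinc-dependent class I deacetylases that work inside corepressor complexes and are reported to remove lactyl groups. SIRT1, mostly nuclear, and SIRT3, mostly mitochondrial, are deacylases that consume NAD. SRSF10 is a serine and arginine-rich splicing factor, and values summed per gene, as used here, do not separate splice forms.

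Sequences are shown for the related pairs, because reads of close copies can be confused, and for the promoter of AARS1. The coding sequences of EP300 and CREBBP in the GENCODE 29 transcripts (GRCh38) were identical at 4908 of 6885 aligned bases, or 71.3%. Those of HDAC2 and HDAC1 were identical at 1093 of 1441 aligned bases, or 75.9%. The longest stretch that each pair shares is printed 5′ to 3′ on the coding strand, with no base singled out by capitals. The EP300 and CREBBP stretch lies at chr22:41176974-41177002 on the plus strand and chr16:3729645-3729673 on the minus strand. The HDAC1 and HDAC2 stretch spans a splice junction, with its first 16 bases at chr1:32316767-32316782 on the plus strand in HDAC1 and at chr6:113958649-113958664 on the minus strand in HDAC2.
EP300 and CREBBP shared stretch: ctgccatcctgccagaagatgaagcgggt
HDAC1 and HDAC2 shared stretch: aagcagatgcagagatt
At 29 and 17 bases, both stretches are short. No window of 50 bases was shared between the paired enzymes, and windows shared with any other locus made up at most 0.62% of a gene's windows, in CREBBP. Values of these pairs are therefore read as separate measurements below.

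The letters TGATGNAA, the core of the element bound by C/EBP and ATF factors in the amino acid response, were searched on both strands of the 250 bases before each gene start in RefSeq (GRCh38.p14). They occurred in 1104 of 35116 promoters, or 3.14%. Among the 10 promoters listed for 9 of the enzymes, the letters occurred in that of AARS1, and they were absent from these windows of EP300, CREBBP, KAT5, HDAC1, HDAC2, HDAC3, SIRT1 and SIRT3. The match in AARS1 lies 187 to 180 bases before the start, on the opposite strand, and is given in capitals in the stretch chr16:70289507-70289756, minus strand.
AARS1 promoter: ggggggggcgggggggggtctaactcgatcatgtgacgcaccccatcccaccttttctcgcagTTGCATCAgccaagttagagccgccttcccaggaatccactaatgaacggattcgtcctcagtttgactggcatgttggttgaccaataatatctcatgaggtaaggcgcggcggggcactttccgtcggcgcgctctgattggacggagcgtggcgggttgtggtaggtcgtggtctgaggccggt
The match is a description of these letters and does not show that a factor binds there.

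Levels are FPKM as deposited by the authors, which scale the fragments of a gene by its length and by library depth. SRSF10 had 10.6, 10.8 and 10.6 FPKM in the knockdown libraries, against 18.6, 19.5 and 19.8 FPKM in the control libraries. The groups did not overlap, and the mean fell by 44.8% (log2 difference −0.80, adjusted p = 0.000166 in limma). In bulk RNA, fewer cells of a kind and less RNA per cell cannot be told apart. Of 12191 genes with at least 1 FPKM in at least 3 libraries, 1542 rose and 1525 fell at an adjusted p below 0.05, in limma on log2(FPKM + 1), where p was adjusted over all tested genes by the Benjamini-Hochberg method. Leaving out knockdown 1, 2 or 3 gave 952, 943 or 894 genes that rose and 1015, 982 or 964 that fell. The estimated depth was 12720000 to 14350000 fragments per library. The label Huh7 was not borne out by hepatocyte markers: 8 of 10 were under 1 FPKM in every library, with TTR and APOA2 listed at 0. FGB and HNF4A were the exceptions and carried the sum of the list, 12.0 to 13.6 FPKM in knockdown libraries and 11.1 to 13.4 FPKM in control libraries. Under 1 FPKM, ALB (mean 0.624 against 0.150 FPKM) and SERPINA1 (0.623 against 0.106 FPKM) were higher in knockdown than in control libraries. APOB was lower (0.386 against 0.593 FPKM), and these low values were not tested. Epithelial markers summed to 675 to 733 FPKM in knockdown libraries and 707 to 745 FPKM in control libraries. Nearly all of this was the keratins KRT8, KRT18 and KRT19. CDH1 averaged 1.89 FPKM in knockdown and 1.76 FPKM in control libraries, and EPCAM was under 1 FPKM in every library. Endothelial markers summed to 9.56 to 10.8 FPKM in knockdown libraries and 5.49 to 6.17 FPKM in control libraries. Of these markers, 3 of 5 were under 1 FPKM in every library. PECAM1 (mean 6.85 in knockdown against 5.28 FPKM in control libraries) carried most of the sum, and KDR (3.09 against 0.502 FPKM) added to it mainly in the knockdown. Both were tested and passed as higher (adjusted p = 0.0373 for PECAM1 and 0.00115 for KDR in limma). Fibroblast markers summed to 9.55 to 10.5 FPKM in knockdown libraries and 4.12 to 5.21 FPKM in control libraries, nearly all of it LUM, with 5 of 6 under 1 FPKM in every library. LUM passed as higher in the knockdown (log2 difference 0.96, adjusted p = 0.000928 in limma). Macrophage markers summed to 0.367 to 0.689 FPKM in knockdown libraries and 0.345 to 0.368 FPKM in control libraries. The part of these differences in any result below was not tested.

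None of the 10 enzymes passed this test, 0 of 10 where the background over all tested genes was 25.2%, made up of 12.6% higher and 12.5% lower. At an unadjusted p below 0.05 the count was 1 of 10, AARS1, against a background of 37.4%. All 10 were tested, each above 1 FPKM in all 6 libraries. The 95% confidence intervals of the log2 differences all lay between −0.30, the lower bound for HDAC2, and 0.25, the upper bound for SIRT3, and 9 of 10 covered 0. The median size of the log2 difference was 0.045 for the enzymes and 0.13 for all tested genes, as a description. Among the 9404 tested genes whose mean level lay within the range of the enzymes, 27.2% passed the threshold.

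**Figure D1:**
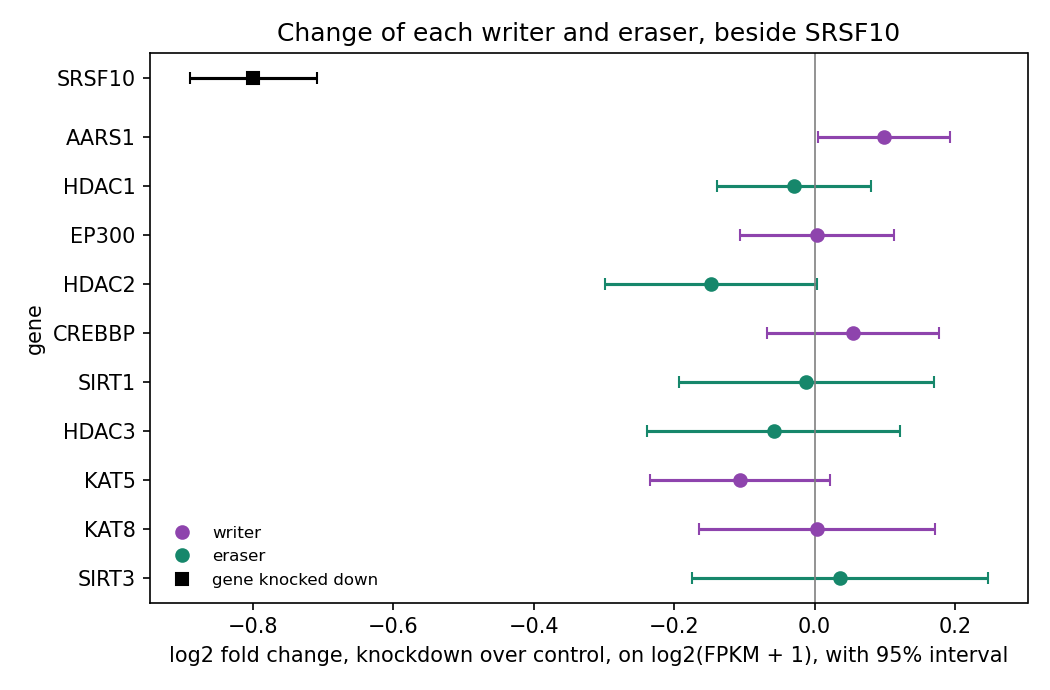
Difference between knockdown and control for each enzyme on the log2(FPKM + 1) scale (horizontal axis), with 95% confidence intervals from limma over 3 libraries per group and writers and erasers in different colours. SRSF10 is at the top, at −0.80. Among the enzymes AARS1 alone has an interval that does not reach 0, and no interval extends beyond −0.30 or 0.25.

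AARS1 (ENSG00000090861, chr16:70252295-70289543, minus strand) had the highest FPKM of the 10. It had 51.9, 53.5 and 53.3 FPKM in the knockdown libraries, against 49.1, 51.6 and 47.4 FPKM in the control libraries. All 3 knockdown libraries stood above all 3 controls, although the gap between the lowest knockdown library and the highest control was small. Groups that did not overlap occurred for 42.7% of all tested genes, with the knockdown higher in 20.6%. The mean was 7.18% higher in the knockdown, with a log2 difference of 0.099 (SE 0.040, 95% interval 0.0048 to 0.19, unadjusted p = 0.0419, adjusted p = 0.117 in limma). It did not pass the threshold in any of 14 alternative fits, where its adjusted p ranged from 0.0530 to 0.265. Each value rested on an estimated 2885 to 3266 fragments.

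The genes whose pattern over the 6 libraries lay nearest to that of AARS1, of 10255 protein-coding tested genes, were PSAT1, MYO1C and C12orf66. Likeness was the root-mean-square distance between mean-centred log2(FPKM + 1) values, and it was 0.00999, 0.0103 and 0.0138 in that order. PSAT1, an aminotransferase of serine synthesis, had 39.5, 41.3 and 41.0 FPKM in knockdown libraries against 37.2, 39.7 and 35.9 FPKM in control libraries. As for AARS1, the second of the controls was the highest and the third the lowest, and so it was in MYO1C and C12orf66. This likeness follows from how these genes were chosen. Such distances select for small differences, and no test was made on them. AARS2, the mitochondrial alanyl-tRNA synthetase also reported to lactylate proteins, averaged 7.44 ± 0.23 FPKM in knockdown libraries and 7.23 ± 0.32 FPKM in control libraries (SD, n = 3 each), and did not pass the threshold (adjusted p = 0.629 in limma).

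EP300 (ENSG00000100393, chr22:41091786-41180079, plus strand) had 14.6, 14.2 and 14.9 FPKM in the knockdown libraries, against 15.3, 13.8 and 14.5 FPKM in the control libraries. The knockdown values lay inside the range of the controls. The log2 difference was 0.0032 with a 95% interval of −0.11 to 0.11 (adjusted p = 0.970 in limma). CREBBP (ENSG00000005339, chr16:3725054-3880726, minus strand) had 11.1, 10.8 and 10.5 FPKM in the knockdown libraries, against 11.0, 9.74 and 10.4 FPKM in the control libraries. Its groups overlapped, with a log2 difference of 0.055 (95% interval −0.07 to 0.18, adjusted p = 0.486), and 0.014 without control 2 and 0.094 without control 1. Both are long transcripts, with an estimated 2201 to 2742 fragments for EP300 and 1920 to 2446 for CREBBP in each library.

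The balance of the pair was taken as the ratio of EP300 to CREBBP within a library, which does not depend on how libraries are scaled. It was 1.32, 1.31 and 1.42 in the knockdown libraries, against 1.39, 1.42 and 1.40 in the control libraries. EP300 had the higher FPKM of the pair in all 6 libraries, and the groups overlapped. The difference in log2 ratio was −0.056, with p = 0.3 in an exact two-sided permutation test, whose smallest possible p with 3 libraries against 3 is 0.1. Leaving out 1 library gave −0.092 (without knockdown 3) to −0.037 (without knockdown 2).

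KAT5 (ENSG00000172977, chr11:65711996-65719604, plus strand) had 5.49, 5.29 and 4.89 FPKM in the knockdown libraries, against 5.50, 5.80 and 5.80 FPKM in the control libraries. Each knockdown value was below each control value, but the highest of the knockdown and the lowest of the controls nearly touched. The knockdown was lower without overlap in 22.0% of all tested genes. The mean differed by −8.28%, with a log2 difference of −0.11 (SE 0.054, 95% interval −0.23 to 0.02, adjusted p = 0.201 in limma), and −0.067 without knockdown 3. KAT5 shares 1439 of its 3732 exon bases, or 38.6%, with RNASEH2C, a ribonuclease H2 subunit gene on the opposite strand. Since the strand setting is not known, reads of this pair cannot be told apart. RNASEH2C itself had 3.14, 3.10 and 2.85 FPKM in knockdown libraries against 3.27, 2.96 and 2.79 FPKM in control libraries, with overlapping groups.

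KAT8 (ENSG00000103510, chr16:31115754-31131393, plus strand) had the lowest FPKM of the writers. It had 3.47, 2.95 and 3.17 FPKM in the knockdown libraries, against 3.17, 3.41 and 2.98 FPKM in the control libraries. The groups spanned almost the same range, with a log2 difference of 0.0034 (95% interval −0.16 to 0.17, adjusted p = 0.980 in limma). At an estimated 174 to 210 fragments per library, a difference of the size seen for KAT5 or AARS1 would lie inside this interval.

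**Figure D2:**
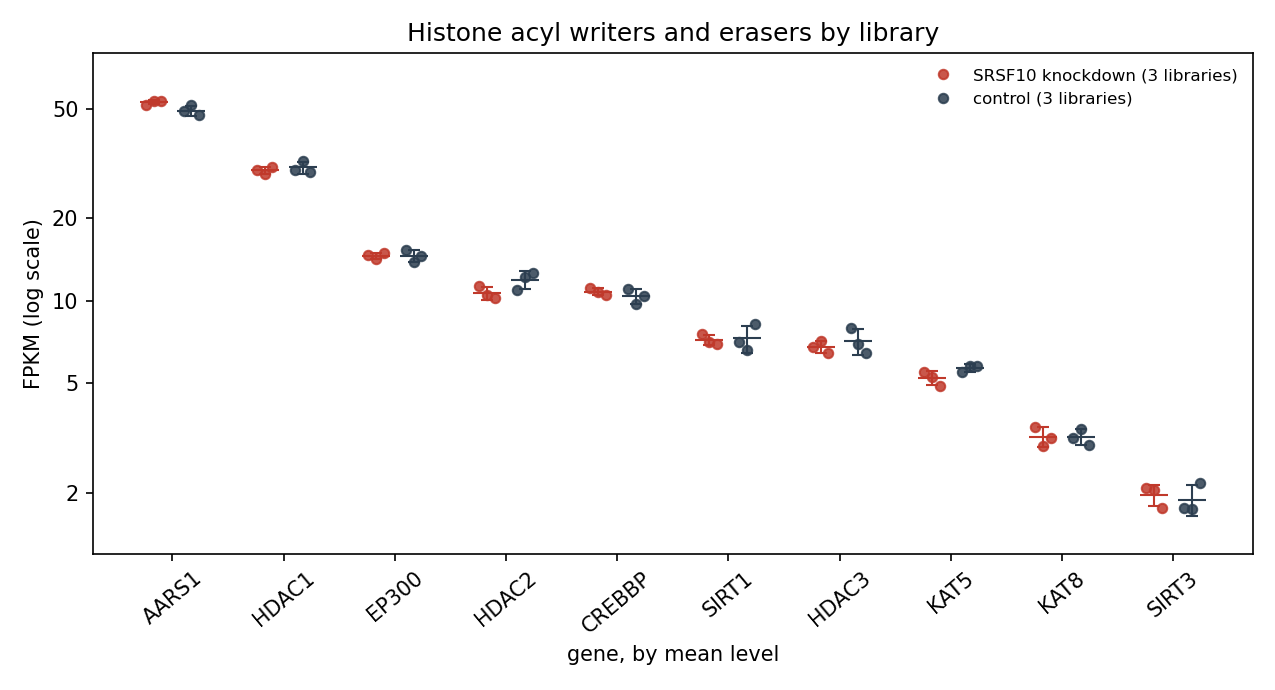
FPKM of each enzyme in every library on a log10 axis, knockdown left of control within each gene, with a horizontal mark at each group mean and error bars of 1 SD (n = 3). AARS1, at 47.4 to 53.5 FPKM, and HDAC1 stand above the rest, SIRT3 is lowest, and in 8 of 10 genes the knockdown and control values overlap, leaving 2 of 10 without overlap against 42.7% of all tested genes.

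HDAC2 (ENSG00000196591, chr6:113933028-114011308, minus strand), a catalytic subunit of the SIN3, NuRD and CoREST complexes, showed the largest shift of the 10 in size. It had 11.3, 10.5 and 10.2 FPKM in the knockdown libraries, against 11.0, 12.2 and 12.7 FPKM in the control libraries. The first library of each group overlapped, and the other knockdown libraries lay below every control. The mean differed by −10.6%, with a log2 difference of −0.15 (SE 0.064, 95% interval −0.30 to 0.0033, unadjusted p = 0.0540, adjusted p = 0.141 in limma). Its adjusted p ranged from 0.0596 to 0.321 over the alternatives, so it passed in none of them.

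HDAC1 (ENSG00000116478, chr1:32292086-32333635, plus strand), the partner of HDAC2 in the same complexes, had 29.9, 29.1 and 30.9 FPKM in the knockdown libraries, against 29.9, 32.4 and 29.5 FPKM in the control libraries. The groups overlapped, with a log2 difference of −0.030 (95% interval −0.14 to 0.08, adjusted p = 0.685 in limma). The ratio of HDAC2 to HDAC1 was 0.378, 0.360 and 0.332 in the knockdown libraries, against 0.366, 0.376 and 0.430 in the control libraries. HDAC1 had the higher FPKM in all 6 libraries. The log2 ratio was lower in the knockdown by a difference of −0.13, with overlapping groups and p = 0.3 in an exact two-sided permutation test. It was −0.059 without control 3 and −0.079 without knockdown 3. After Benjamini-Hochberg adjustment over these exact tests, the p-value was 0.3 for both ratios.

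**Figure D3:**
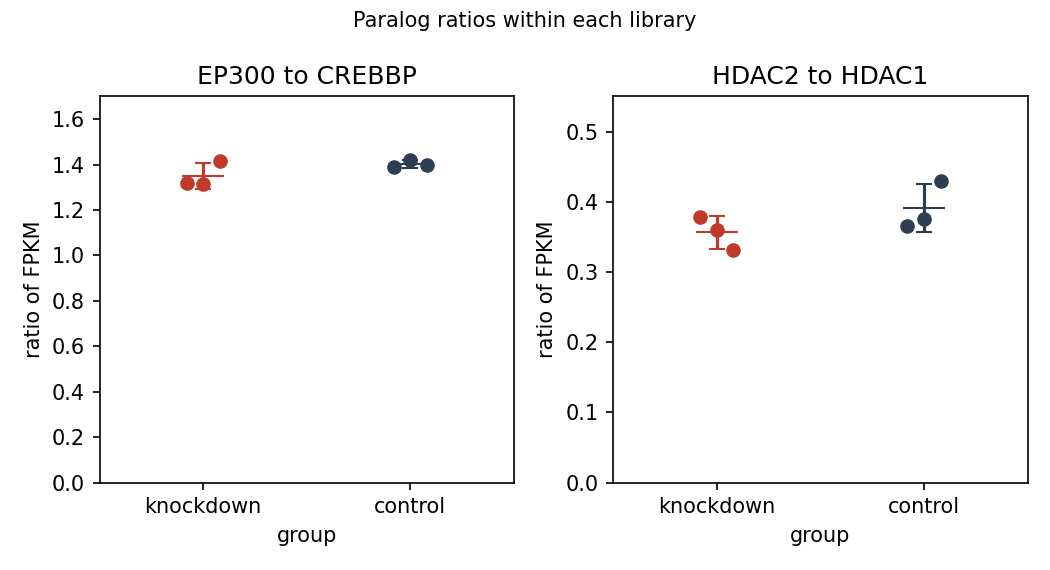
Ratio of EP300 to CREBBP and of HDAC2 to HDAC1 in each library, knockdown left of control, with a horizontal mark at each group mean and error bars of 1 SD (n = 3). The EP300 ratios lie between 1.31 and 1.42 and the HDAC2 ratios between 0.332 and 0.430, and the groups overlap in both.

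HDAC3 (ENSG00000171720, chr5:141620876-141636870, minus strand), which works in corepressor complexes of its own, had 6.80, 7.12 and 6.44 FPKM in the knockdown libraries, against 7.96, 6.98 and 6.44 FPKM in the control libraries. The groups overlapped, and the first control was the highest of the 6. The log2 difference was −0.058 (95% interval −0.24 to 0.12, adjusted p = 0.625 in limma). An antisense gene, AC008781.1, overlaps 9.20% of the exon bases of HDAC3.

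SIRT1 (ENSG00000096717, chr10:67884669-67918390, plus strand) had 7.57, 7.10 and 6.95 FPKM in the knockdown libraries, against 7.09, 6.60 and 8.20 FPKM in the control libraries. The controls enclosed the knockdown values, and their coefficient of variation of 11.2% exceeded both the 4.54% of the knockdown and the 4.74% that counting alone would give. The log2 difference was −0.012 (95% interval −0.19 to 0.17, adjusted p = 0.930 in limma). SIRT3 (ENSG00000142082, chr11:215458-236931, minus strand) had 2.07, 2.04 and 1.76 FPKM in the knockdown libraries, against 1.75, 1.74 and 2.17 FPKM in the control libraries. One library of each group ran against the others, so the groups overlapped, with a log2 difference of 0.036 (95% interval −0.17 to 0.25, adjusted p = 0.806). SIRT3 rested on an estimated 115 to 153 fragments per library and had the widest interval of the 10. Leaving out 1 library moved the difference to between 0.00024 (without control 2) and 0.10 (without control 3). With a pseudocount of 0.1 the interval became −0.25 to 0.36. Exons of PSMD13, a proteasome subunit gene on the opposite strand, overlap 6.07% of its exon bases.

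In order of mean FPKM over the 6 libraries, AARS1 (51.1) was followed by HDAC1 (30.3), EP300 (14.6), HDAC2 (11.3), CREBBP (10.6), SIRT1 (7.25), HDAC3 (6.96), KAT5 (5.46), KAT8 (3.19) and SIRT3 (1.92). FPKM are divided by gene length, and the order depends on the length used. HDAC2 had more estimated fragments per library (2015 to 2655) than HDAC1 (1558 to 1702), over 15461 exon bases in GENCODE 29 against 3963, which count every listed splice form. HDAC2 and CREBBP exchanged places, each being higher in 3 of 6 libraries, and so did SIRT1 and HDAC3. The other neighbours in this order kept their order in all 6 libraries.

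Around the 10 enzymes, 127 other genes of the acylation machinery were listed by role, and 115 of them were tested. Of these, 9 rose and 25 fell, 29.6% against the background of 25.2%. All 6 of the called genes on chromosome 3 fell, and on that chromosome 315 of 718 tested genes fell and 34 rose, with a median log2 difference of −0.19. Without chromosome 3, 9 rose and 19 fell of 105 list genes that were tested. The number that fell is unstable: it was 11 without control 1, 14 without knockdown 1, 9 without knockdown 2 and 13 without knockdown 3. All p-values in the following paragraphs are from limma, adjusted over all tested genes.

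**Figure D4:**
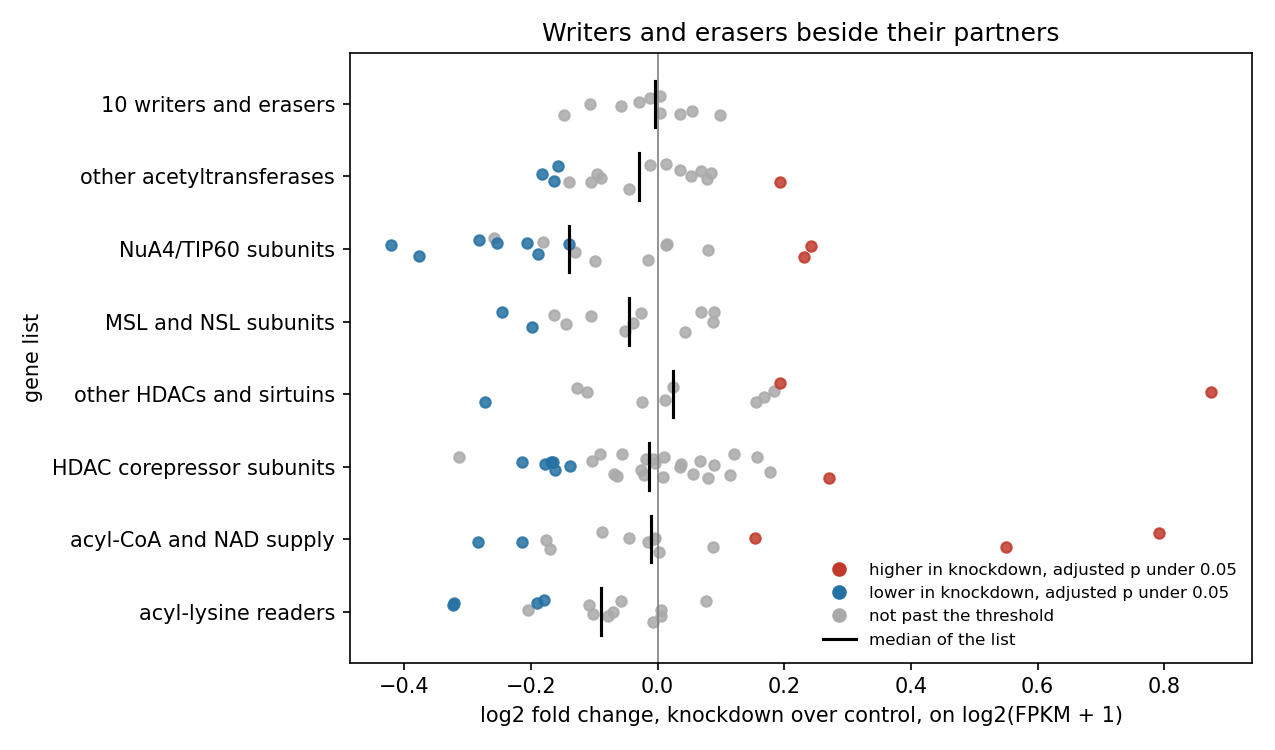
Log2 differences, knockdown minus control on the log2(FPKM + 1) scale, for the tested genes of the machinery lists and for the 10 enzymes. AARS2, listed on its own, is not drawn. Genes past the threshold are coloured by direction, with a vertical line at the median of each list. HDAC9 (0.87) and ACSS2 (0.79) are the largest increases and RUVBL1 (−0.42) the largest decrease among these tested genes, and no point among the 10 enzymes is coloured.

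The 17 subunits of the NuA4/TIP60 complex that houses KAT5 were all tested, and 2 rose while 7 fell, 52.9% against the background of 25.2%. Their median log2 difference was −0.14, and −0.13 without chromosome 3, against −0.010 over all tested genes. Without chromosome 3, which carries 2 of the genes that fell, 2 rose and 5 fell of 15 tested subunits. RUVBL1, an AAA+ ATPase that assembles with RUVBL2 and is encoded on chromosome 3, averaged 16.2 ± 0.42 FPKM in knockdown libraries and 22.0 ± 0.19 FPKM in control libraries (SD, n = 3 each; log2 difference −0.42, adjusted p = 0.000679). EPC2, an enhancer of polycomb scaffold subunit, averaged 7.27 ± 0.41 FPKM in knockdown libraries and 9.75 ± 0.96 FPKM in control libraries (adjusted p = 0.0115). BRD8, the bromodomain subunit, averaged 7.85 ± 0.32 FPKM in knockdown libraries and 9.55 ± 0.44 FPKM in control libraries (adjusted p = 0.0118). These 3 fell in every alternative fit, whereas ING3, the PHD finger subunit that reads methylated H3K4, averaged 2.65 ± 0.24 FPKM in knockdown libraries against 3.43 ± 0.13 FPKM in control libraries and lost its call in 5 of 6 fits that left out 1 library. The genes that rose were the chromodomain protein MORF4L1 and its paralog MORF4L2, close copies whose reads the counting could have split. MORF4L2 averaged 196 ± 6.0 FPKM in knockdown libraries and 166 ± 3.0 FPKM in control libraries (log2 difference 0.24), and MORF4L1 34.1 ± 0.42 FPKM against 28.9 ± 0.44 FPKM (log2 difference 0.23). In place of 7, the number that fell was 3 without control 1 or knockdown 2, 4 without control 2, control 3 or knockdown 1, and 5 without knockdown 3.

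Of 12 tested subunits of the MSL and NSL complexes that house KAT8, 0 rose and 2 fell in limma, OGT and MSL2. That share was 16.7%, against the background of 25.2%. At an unadjusted p below 0.05, 4 of 12 passed, 1 of them higher, against a background of 37.4%. OGT, the O-GlcNAc transferase found in the NSL complex, averaged 61.9 ± 2.2 FPKM in knockdown libraries and 73.5 ± 1.3 FPKM in control libraries (adjusted p = 0.00432). MSL2, a RING-finger subunit encoded on chromosome 3, averaged 10.9 ± 0.40 FPKM in knockdown libraries and 12.7 ± 0.26 FPKM in control libraries. The call of MSL2 was lost without knockdown 2, at an adjusted p of 0.056. The remaining 10 subunits did not pass.

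Among 16 other acetyltransferases, 1 rose and 3 fell, 25% against the background of 25.2%. KAT6A, the MOZ acetyltransferase, averaged 4.45 ± 0.073 FPKM in knockdown libraries and 3.77 ± 0.15 FPKM in control libraries. HAT1, the cytoplasmic enzyme for newly made histone H4, averaged 15.2 ± 0.63 FPKM in knockdown libraries and 17.1 ± 0.22 FPKM in control libraries. KAT2A (GCN5), reported to write succinyl and lactyl groups, averaged 19.8 ± 0.55 FPKM in knockdown libraries and 22.6 ± 1.4 FPKM in control libraries (adjusted p = 0.0401). These 3 and GTF3C4, a TFIIIC subunit reported to acetylate histones that fell with an adjusted p of 0.0319, all lost their call in 5 of 6 fits that left out 1 library. KAT7 (HBO1), also reported as a lactyltransferase, averaged 6.69 ± 0.33 FPKM in knockdown libraries and 6.76 ± 0.40 FPKM in control libraries and did not pass.

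Of 13 other deacetylases and sirtuins, 11 were tested, and 2 rose and 1 fell, 27.3% against the background of 25.2%. At an unadjusted p below 0.05, 6 of the 11 passed, 5 of them higher, against a background of 37.4%. HDAC9, a class IIa deacetylase, had the largest log2(FPKM + 1) increase among the tested machinery genes, with 3.95 ± 0.22 FPKM in knockdown libraries and 1.72 ± 0.43 FPKM in control libraries (log2 difference 0.87, adjusted p = 0.00305). It rose in all 13 alternative fits in which it was tested, and it is left out by the filter of 5 FPKM. SIRT7, a nucleolar sirtuin, averaged 8.54 ± 0.34 FPKM in knockdown libraries and 10.5 ± 0.67 FPKM in control libraries (adjusted p = 0.0133). SIRT2, a mainly cytoplasmic sirtuin reported to remove lactyl groups, averaged 5.10 ± 0.19 FPKM in knockdown libraries and 4.34 ± 0.20 FPKM in control libraries, and it lost its call in all 6 fits that left out 1 library.

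Of 32 subunits of the corepressor complexes that hold HDAC1, HDAC2 and HDAC3, 30 were tested, and 1 rose and 6 fell. That share was 23.3%, against the background of 25.2%. RBBP7, a histone-binding WD-repeat subunit, averaged 13.3 ± 0.27 FPKM in knockdown libraries and 15.6 ± 0.36 FPKM in control libraries (adjusted p = 0.0075). The call of RBBP7 held in every alternative. MTA2 of NuRD fell with 32.1 ± 0.67 FPKM in knockdown libraries and 36.4 ± 1.4 FPKM in control libraries, SUDS3 of SIN3 with 17.3 ± 0.24 FPKM against 19.1 ± 0.22 FPKM, and RBBP4 with 10.3 ± 0.25 FPKM against 11.6 ± 0.59 FPKM. The calls of SUDS3 and RBBP4 were lost in 5 of 6 fits that left out 1 library and that of MTA2 in 3 of them. In place of 6, the number that fell was 1 without control 1, knockdown 1 or knockdown 2, 2 without knockdown 3, and 4 without control 2 or control 3. CHD4, the main ATPase of NuRD, was not tested, at 0.944, 0.722 and 0.874 FPKM in knockdown libraries and 0.656, 0.755 and 0.662 FPKM in control libraries. AC006064.6 overlaps 46.9% of the exon bases of CHD4 on the same strand, and AC006064.2 overlaps 10.2% on the opposite strand, so this level is uncertain.

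Of 18 genes that supply acyl-CoA or NAD, 14 were tested, and 3 rose and 2 fell, 35.7% against the background of 25.2%. ACSS2, which makes acetyl-CoA from acetate in the cytosol and nucleus and has been reported to make lactyl-CoA, averaged 8.35 ± 0.58 FPKM in knockdown libraries and 4.40 ± 0.11 FPKM in control libraries (log2 difference 0.79, adjusted p = 0.000457). ACSS1, its mitochondrial counterpart, averaged 2.35 ± 0.17 FPKM in knockdown libraries and 1.28 ± 0.064 FPKM in control libraries (log2 difference 0.55, adjusted p = 0.00317). ACLY, the citrate lyase that feeds acetyl-CoA to the cytosol and nucleus, averaged 82.9 ± 0.95 FPKM in knockdown libraries and 74.5 ± 1.8 FPKM in control libraries (adjusted p = 0.0138). The call of ACLY was lost without knockdown 1 (adjusted p = 0.0532) and without knockdown 2 (0.0565), while that of ACSS2 held in all 14 alternatives and that of ACSS1 in the 13 in which it was tested, the filter of 5 FPKM leaving it out. The genes that fell, DLAT and PDHB, encode subunits of the pyruvate dehydrogenase complex, of which PDHA1 and DLD were also listed and did not pass. DLAT, its E2 subunit, averaged 18.7 ± 0.36 FPKM in knockdown libraries and 23.0 ± 0.87 FPKM in control libraries (adjusted p = 0.00361), and PDHB, on chromosome 3, averaged 7.17 ± 0.10 FPKM against 8.49 ± 0.63 FPKM and lost its call in 5 of 6 fits that left out 1 library. LDHA, which interconverts pyruvate and lactate, had 128, 150 and 137 FPKM in knockdown libraries against 130, 133 and 126 FPKM in control libraries, with overlapping groups (adjusted p = 0.334). LDHB averaged 2.45 ± 0.28 FPKM in knockdown libraries and 2.46 ± 0.36 FPKM in control libraries, and SUCLG2, a subunit of a succinyl-CoA synthetase, averaged 33.2 ± 0.99 FPKM against 33.1 ± 1.8 FPKM. Neither passed the threshold.

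Of 18 proteins that read acyl-lysines, 14 were tested, and 0 rose while 4 fell in limma. That share was 28.6%, against a background of 25.2%, of which 12.5% were lower. The median log2 difference was −0.090, and −0.074 without chromosome 3, which carries 2 of the genes that fell. At an unadjusted p below 0.05, 7 of 14 readers passed, and 0 of them were higher. Of all 12191 tested genes, 4563 (37.4%) passed at that p, and 2214 of these were higher. TRIM24, a bromodomain E3 ligase, averaged 8.25 ± 0.51 FPKM in knockdown libraries and 10.6 ± 0.26 FPKM in control libraries (log2 difference −0.32, adjusted p = 0.00556). PBRM1, the polybromo subunit of PBAF encoded on chromosome 3, averaged 11.2 ± 0.27 FPKM in knockdown libraries and 14.3 ± 0.90 FPKM in control libraries (log2 difference −0.32, adjusted p = 0.00593). Both held in every alternative. BRD7, another PBAF subunit, averaged 16.9 ± 0.47 FPKM in knockdown libraries and 19.3 ± 0.65 FPKM in control libraries, and lost its call without knockdown 2 (adjusted p = 0.0737) and without knockdown 3 (0.0689). YEATS2, on chromosome 3, averaged 7.96 ± 0.40 FPKM in knockdown libraries and 9.22 ± 0.37 FPKM in control libraries, and lost its call in 4 of 6 fits that left out 1 library. SMARCA4 (BRG1), TRIM33 and DPF2, each reported to bind lactylated histone, did not pass. TRIM33 averaged 7.95 ± 0.31 FPKM in knockdown libraries and 8.65 ± 0.23 FPKM in control libraries, with no overlap and an adjusted p of 0.127, and SMARCA4 averaged 12.7 ± 0.56 FPKM against 12.6 ± 0.65 FPKM. DPF2 averaged 7.82 ± 0.30 FPKM in knockdown libraries and 7.86 ± 0.17 FPKM in control libraries.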

How the data were processed

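RNA-seq libraries were made from total RNA and sequenced on an Illumina instrument, per the labels' protocols. FastQC 0.11.9, Trim Galore 0.6.5-1 and build GRCh38 are named in the submitters' processing notes. Which aligner, counter, annotation and strand setting were used is not given in the sources used here. Values are FPKM as deposited by the authors, with the 6 per-sample files identical to the series table, and no count model was run. Genes with at least 1 FPKM in at least 3 libraries were tested with limma 3.58.1 (R 4.3.3) on log2(FPKM + 1), with a mean-variance trend and no covariates. The threshold was a Benjamini-Hochberg adjusted p of 0.05 over all tested genes. Adding 1 understates changes of low genes. Ratios were tested by exact permutation (SciPy 1.17.1, Python 3.11.15, NumPy 2.4.6; plots with matplotlib 3.10.9).

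Genes were placed with GENCODE release 29. Depth was estimated from low FPKM values, by choosing a depth that brings many of them near a whole number of fragments. Up to 6.5 fragments, 87.8% to 88.4% of these values then came within 0.05 of a whole number. A random value does so in 10% of cases, a rate that leaves out this choice. The estimate only describes precision, for counting error. Of the steps, only the limma fit was run on simulated data, and its outcome is not given here.

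The enzymes and the lists were chosen with earlier results of these data known. Named are the enzymes, SRSF10, up to 4 genes per list and direction with the smallest adjusted p, preset genes of lactylation and lactate supply, and the 3 nearest patterns to the enzyme with the smallest adjusted p. A gene that the rule takes is not reported here. RNASEH2C, PSMD13 and CHD4 were added after values were seen. Exons of 24 of 48 named genes overlap another gene. Alternatives were no filter, a filter of 5 FPKM, the replicate number as a block, a pseudocount of 0.1, 3 other scalings, no trend, and leaving out each library or chromosome 3. Libraries correlated at 0.986 to 0.988 within groups and 0.971 to 0.976 between them.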

Additional observations from a re-analysis of the deposited data

How the results depend on the processing

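None of the 10 enzymes passed the threshold in any of 14 alternative fits in limma, 8 of them being tested with the filter of 5 FPKM. Of 138 values of the enzymes under alternatives, 128 kept their direction and 10 turned, all of them in differences near 0: EP300 (−0.00050 with median-of-ratios scaling, −0.030 to 0.037 leaving out 1 library), KAT8 (−0.020 with quantile normalization, −0.043 to 0.046 leaving out 1 library), HDAC1 (−0.055 to 0.011), HDAC3 (−0.12 to 0.015) and SIRT1 (−0.073 to 0.065). Among other named genes, SUCLG2 (−0.0021 with median-of-ratios scaling, −0.011 with quantile normalization, −0.022 to 0.044 leaving out 1 library), DPF2 (0.0015 with quantile normalization, −0.026 to 0.021), KAT7 (−0.049 to 0.026), LDHB (−0.062 to 0.078) and SMARCA4 (−0.026 to 0.045) turned as well. The machinery genes that fell, 25 in all, were 13 with no filter, 11 with the replicate block and 9 to 19 leaving out 1 library. Tested genes that fell numbered 1013 with no filter and 964 to 1327 leaving out 1 library, and those that rose 894 to 1352. Of the 29 named machinery genes past the threshold, 15 held it in every alternative that tested them and 10 lost it in at least 4 of 6 fits that left out 1 library, which also test with fewer samples. Same-numbered libraries did not deviate together (correlations 0.016, 0.057 and −0.071), where differently numbered ones gave −0.15 to 0.13. No effect shared by replicate number was visible, which cannot show whether the libraries were paired. With the replicate block 1193 tested genes rose and 1146 fell, and 0 enzymes were called. Both ratios had an exact p of 0.5 in a permutation test that paired libraries by number. With 3 libraries per group that test cannot reach 0.05, so it decides nothing. The largest shift of the median of all genes under a scaling was −0.0049 (log2). Depth limits SIRT3 and KAT8 most.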
